A study of Mus musculus with 16 samples.

Results

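Rbp7, a small protein that binds retinol inside cells, and 8 other genes of vitamin A metabolism were followed in inguinal white fat of mice given a control or a high-fat diet, with or without an antibody against PDGFcc. The 9 genes (Rbp4, Rbp7, Retsat, Rdh10, Dhrs3, Aldh1a1, Aldh1a7, Rarb and Rxrg) were taken by symbol from a table of 16091 genes, and all 9 were found in it and passed the filter on low values. The set was chosen by its antibody differences: Rbp7 was lower with the antibody on both diets in these same libraries. The antibody comparisons of the 9 genes are therefore described by values, differences and SEs, and nothing is read from how many passed a threshold there. Their diet comparisons, which did not choose them, are tested.

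The tissue, fat from under the skin of the groin, came from C57BL6/J mice in 16 libraries. There were 4 libraries of each diet without the antibody (untreated) and 4 of each diet with it. PDGFcc is a ligand of the receptor PDGFRA, and the antibody (AF1447) was injected into the peritoneum at 50 mg/kg in 100 µl every 2 days for 2 weeks, starting at 6 weeks of age. The sources used here do not give the length of the diets, the hour of tissue collection or any injection of untreated mice. Nothing in the labels ties each library to its own animal. The p-values thus set each difference only against the spread between these libraries, and that spread may be technical.

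Vitamin A travels in blood as retinol bound to RBP4 and is held inside cells by binding proteins such as RBP7. Retinol is oxidised to retinaldehyde and then to retinoic acid, which binds the receptors RAR and RXR on DNA. Fat stores retinoids and also makes RBP4, and Rbp7 is known from adipocytes and from the endothelium of fat.

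Column totals of the deposited normalized counts lay between 24.02 and 28.15 in units of 1e6, and the depth in reads is unknown. The tissue label was met by high levels of Car3 and Fabp4, both abundant adipocyte genes, with means of 420500 and 310300 normalized counts over the 16 libraries. None of the 12 adipocyte markers was at 0 in any library. Skeletal muscle markers varied widely: the sum of 12 of them ran from 1182 to 654000 normalized counts, the highest being untreated high-fat replicate 2. The sum of 8 brown and beige adipocyte markers ran from 2685 to 86970, the highest being untreated control-diet replicate 3, and 1 of the 8 (Elovl3) was at 0 in some library. In bulk tissue, fewer cells of a type and less RNA per cell cannot be told apart.

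Stretches upstream of 4 of the genes are shown because the results turn on Rbp7, on the unlike behaviour of the neighbours Aldh1a1 and Aldh1a7, and on Rarb, a textbook target of retinoic acid. They are RefSeq sequence of GRCm38.p6, written 5′ to 3′ on the strand of the gene. The Rbp7 stretch is chr4:149454979-149455098 on the minus strand, its transcript starting at 149454968. The Rarb stretch is chr14:16575506-16575535 on the minus strand, for the transcript starting at 16575476, and it lies within an exon of longer Rarb transcripts. Capitals there mark 2 half-sites of a direct repeat with 5 bases between them. The Aldh1a1 stretch, chr19:20601868-20601960 on the plus strand, and the Aldh1a7 stretch, chr19:20727564-20727656 on the minus strand, lie at the same distance from their starts (20601968 and 20727556), and capitals mark the bases that differ between them. The Aldh1a1 stretch is inside the annotated span of that gene but in none of its exons.
Rbp7: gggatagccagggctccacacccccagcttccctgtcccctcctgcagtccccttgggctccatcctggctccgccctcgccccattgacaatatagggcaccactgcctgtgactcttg
Rarb: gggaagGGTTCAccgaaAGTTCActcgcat
Aldh1a1: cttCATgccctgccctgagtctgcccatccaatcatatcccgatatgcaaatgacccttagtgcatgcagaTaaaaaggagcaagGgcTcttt
Aldh1a7: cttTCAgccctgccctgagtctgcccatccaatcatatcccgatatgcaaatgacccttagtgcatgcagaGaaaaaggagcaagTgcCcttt

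Direct repeats of the half-site AGGTCA or of its variants (AGTTCA, also GGGTCA, also GGTTCA), spaced by 1 base (DR1), 2 bases (DR2) or 5 bases (DR5), were searched on both strands of promoter windows of 300 bases, 250 before and 50 after each start. The only match among 13 windows of 8 of the genes was the Rarb DR5, whose first base lies 53 bases before the start. Of 32817 windows of the same length, 0.0975% held a DR5, 0.222% a DR1 and 0.268% a DR2. Rdh10 had no window. Over the printed stretch Aldh1a1 and Aldh1a7 were identical at 87 of 93 bases (93.5%), and over the full 250 bases before the start at 51.6%.

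Per kilobase of exon, the mean level over the 16 libraries was highest for the blood carrier Rbp4 (6238 normalized counts per kb), and Rbp4 was above Aldh1a7 in all 16. Aldh1a7 (2495 per kb), Rbp7 (1664), Dhrs3 (1511), Retsat (1103) and Aldh1a1 (655.3) followed, with ranges over the libraries that overlapped between neighbours in that order. Rbp7 lay above Dhrs3 in 8 of 16 libraries. The receptor Rxrg (226.0 per kb), the dehydrogenase Rdh10 (86.98) and the receptor Rarb (19.65) were lower, each above the next in all 16 libraries. Over the 16 libraries the coefficient of variation was 7.34% for Rdh10 and 39.2% for Rbp7, the latter including the antibody difference for which Rbp7 was chosen.

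Rbp7 (ENSMUSG00000028996, GRCm38 chromosome 4, 149449687 to 149454978, minus strand) measured 1225, 1738, 1416 and 1286 normalized counts in untreated control-diet replicates 1 to 4. With the antibody on the control diet the 4 values were 734.7, 779.7, 620.4 and 645.0. On the high-fat diet they were 2028, 1191, 1942 and 1743 untreated, and 972.9, 681.4, 966.2 and 1151 with the antibody. All 8 antibody libraries lay below all 8 untreated libraries, although the gap on the high-fat diet was narrow, from 1151 to 1191.

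The Rbp7 means were 1416 ± 229 untreated and 695 ± 74.9 with the antibody on the control diet, and 1726 ± 376 and 943 ± 194 on the high-fat diet (SD, n = 4 each). The antibody mean was thus 0.491 of the untreated mean on control diet and 0.546 on high-fat diet. On the log2(value + 1) scale the differences were -1.02 and -0.87, each with an SE of 0.18, and the antibody effect differed between the diets by 0.15 ± 0.25 (SE). Among 14189 genes the Rbp7 difference ranked 14 from the lowest on control diet and 309 on high-fat diet. Over all genes, groups did not overlap for 3.33% with the antibody lower and 3.43% with it higher on the control diet. On the high-fat diet these shares were 3.47% and 3.91%, and on both diets at once 0.31% and 0.648%. On the control diet 1 of the 9 genes, Rbp7, passed an adjusted p under 0.05, as did 0.0987% of all genes (0.0423% lower, 0.0564% higher). On the high-fat diet 0 of 9 passed, against 0.0775% of all genes (0.0423% lower, 0.0352% higher). Nothing is read from those counts, because Rbp7 was chosen for them.

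**Figure D1:**
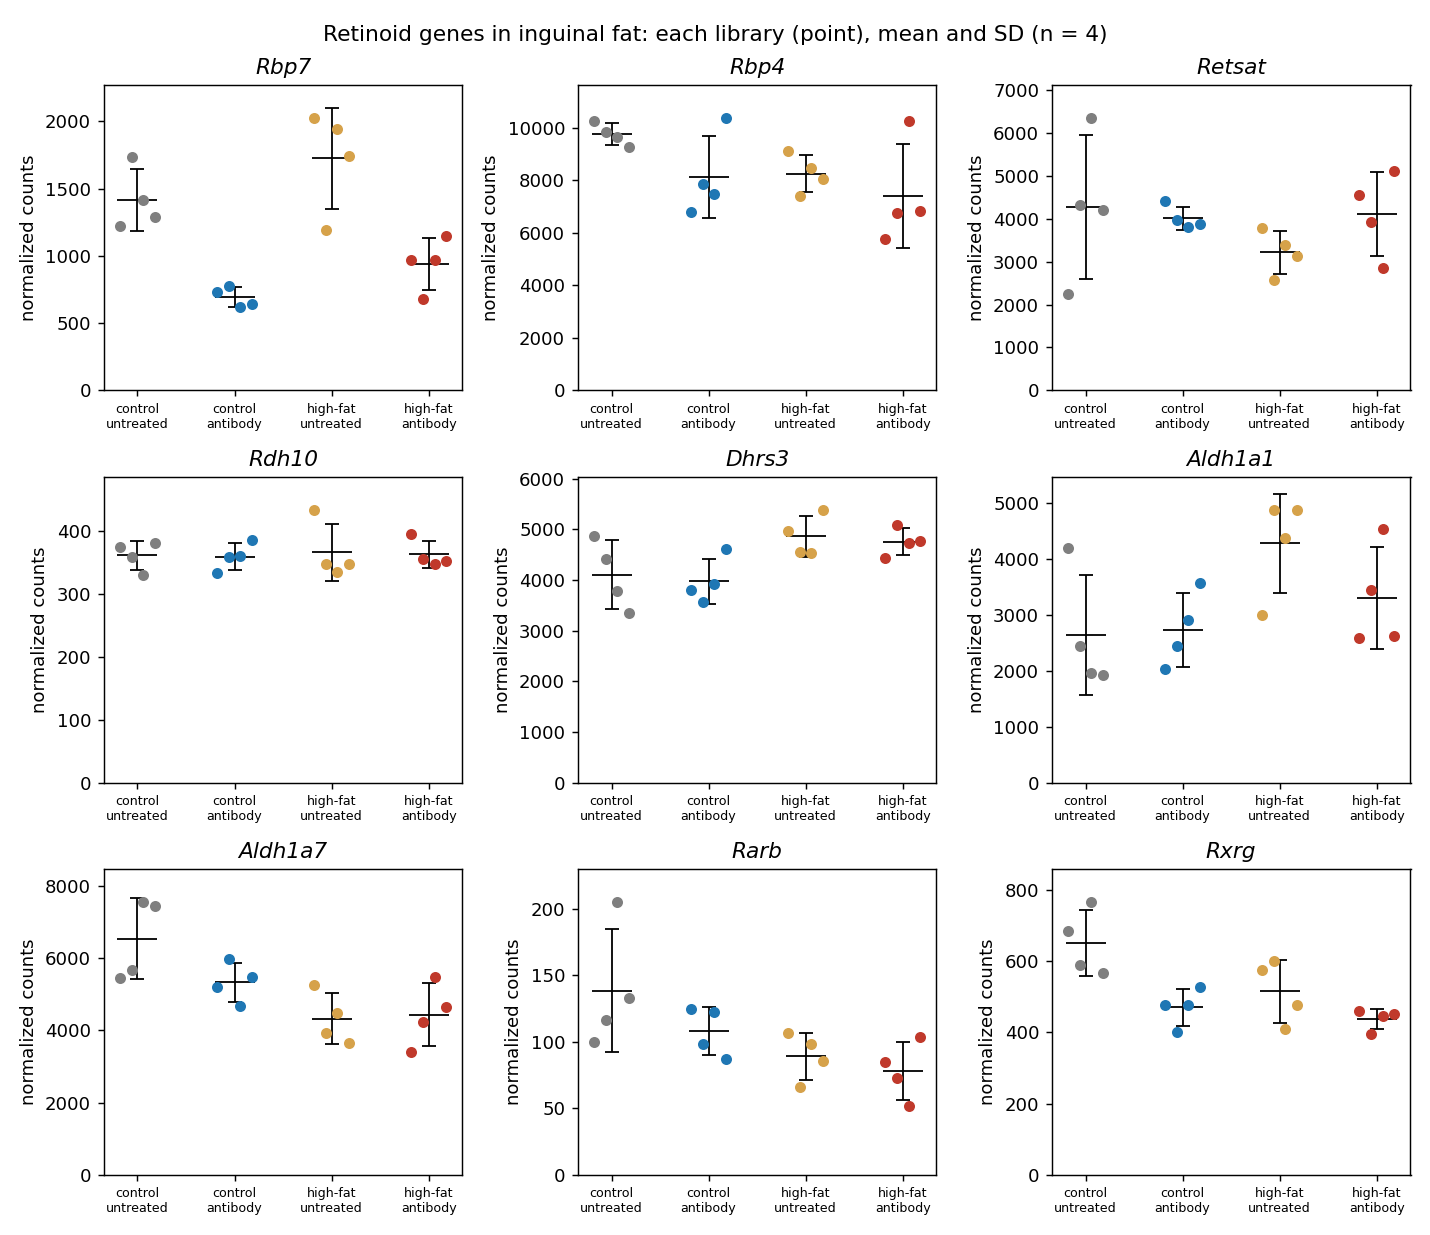
Normalized counts (y axis, from 0, a separate scale for each gene) of the 9 retinoid genes in each library (points) by diet and antibody (x axis), with the mean and SD of 4 libraries. The 8 antibody libraries of Rbp7 sit at or below 1151, under every untreated library, while Rdh10 holds near 360 in all groups.

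Over 23 alternatives (each library left out in turn, and other scalings, filters, pseudocounts and fits) the Rbp7 antibody difference kept its sign, between -1.08 and -0.89 on control diet and between -1.05 and -0.72 on high-fat diet. Without both of the libraries named above for muscle and beige markers, it was -1.01 and -1.04. Muscle marker sums lay mostly higher with the antibody on one diet and mostly lower on the other (0 of 12 markers passed on either), from 1355 to 41840 untreated against 40330 to 219200 with antibody on the control diet, and 8336 to 654000 against 1182 to 11590 on the high-fat diet. Fitted with a term for the muscle score, the Rbp7 differences were -0.89 and -1.05. Of 14 endothelial markers 0 passed the threshold for the antibody on either diet (1 and 0 at an unadjusted p under 0.05, limma), with medians of -0.07 and 0.10 against -0.01 and 0.00 for all genes. Their sums were 287900 to 378300 untreated and 310400 to 350100 with antibody on the control diet, and 292400 to 379100 and 334900 to 414900 on the high-fat diet, ranges that overlap. Fabp4, which is also on the adipocyte list, averaged 310300 normalized counts and made up most of these sums. The next highest endothelial marker, Aqp1, averaged 7641, so the sums say little of the other endothelial genes. Of 12 adipocyte markers 0 passed for the antibody (0 and 1 at an unadjusted p under 0.05), with medians of -0.04 and 0.10.

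The next question was which genes vary most like Rbp7. By Pearson r of log2(value + 1) over the 16 libraries, the 6 named genes most like it were Prkci (r = 0.887), Dusp11 (0.876), Osgin2 (0.874), Rad21 (0.871), Clock (0.865) and Sh3pxd2a (0.853). Prkci is an atypical protein kinase C, Rad21 a cohesin subunit and Clock a transcription factor of the circadian oscillator. Within groups, as deviations from the group means, r was 0.599 for Prkci, 0.667 for Dusp11, 0.418 for Osgin2, 0.605 for Rad21, 0.409 for Clock and 0.462 for Sh3pxd2a. These values describe likeness over libraries that share their treatment groups, and the pooled r includes the antibody difference that chose Rbp7. Clock, for example, averaged 2001 ± 217 untreated and 1373 ± 150 with the antibody on the control diet, and 2038 ± 85.3 and 1566 ± 237 on the high-fat diet (SD, n = 4).

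Between the diets Rbp7 did not pass the threshold. The high-fat minus control difference was 0.27 ± 0.18 (SE) without the antibody (adjusted p = 0.315, limma) and 0.42 ± 0.18 with it (adjusted p = 0.228), with 95% intervals of -0.11 to 0.65 and 0.04 to 0.80 that are not adjusted for the number of genes. The groups overlapped in both comparisons.

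Rbp4, the blood carrier of retinol (ENSMUSG00000024990, chromosome 19, 38116629 to 38125281, minus strand), had 10240, 9851, 9648 and 9245 normalized counts in the untreated control-diet libraries. Untreated high-fat libraries had 9100, 7412, 8453 and 8036, all below the 4 control-diet libraries. The difference was -0.24 ± 0.15 (adjusted p = 0.295, limma), so it did not pass the threshold. With the antibody the values scattered more, from 6781 to 10380 on control diet and from 5747 to 10250 on high-fat diet. The antibody differences were -0.28 and -0.19 (SE 0.15 each).

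Of the enzymes among the 9 genes, Rdh10 varied least over the libraries. This enzyme, which oxidises retinol to retinaldehyde (ENSMUSG00000025921, chromosome 1, 16105774 to 16133734), averaged 360.6 ± 22.9 and 358.8 ± 21.1 on the control diet, untreated and with antibody, and 365.5 ± 45.3 and 362.5 ± 21.8 on the high-fat diet (SD, n = 4). Its diet differences of 0.01 each had 95% intervals of -0.17 to 0.20, so a change in this gene larger than about that size would lie outside them. Dhrs3, which reduces retinaldehyde back to retinol (ENSMUSG00000066026, chromosome 4, 144892827 to 144928209), averaged 4106 ± 674 and 3972 ± 450 on the control diet against 4858 ± 401 and 4753 ± 269 on the high-fat diet. The diet differences of Dhrs3 were alike, 0.25 without and 0.26 with the antibody (SE 0.11 each), and neither passed (adjusted p = 0.134 and 0.222, limma). Without untreated control-diet replicate 1 the first was 0.34 and passed (adjusted p = 0.0245). Its antibody differences were -0.04 and -0.03.

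Retsat, which saturates a double bond of retinol (ENSMUSG00000056666, chromosome 6, 72598475 to 72608425), ranged within the untreated control-diet group alone from 2235 in replicate 1 through 4318 and 4204 to 6349 in replicate 3. The other groups lay inside that range, at 3798 to 4401 for control-diet antibody libraries, and on the high-fat diet at 2573 to 3772 untreated and 2843 to 5100 with antibody. Its diet differences were -0.33 ± 0.25 and 0.00 ± 0.25 (adjusted p = 0.373 and 0.997, limma). Without untreated control-diet replicate 1, the diet difference without antibody was -0.61 and passed the threshold (adjusted p = 0.0256). It was -0.11 without untreated control-diet replicate 3, and -0.006 (adjusted p = 0.993) without the libraries highest in muscle and in beige markers. Retsat shares 650 bases of exon with Gm45053 on the opposite strand, which had 12.39 to 45.71 normalized counts.

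Of the 9 genes, Aldh1a7 alone passed the threshold for diet, in mice without the antibody. Against it stands a background of 8.15% of all genes (5.17% lower and 2.98% higher on the high-fat diet), so 1 in 9 is close to the rate of the table. Aldh1a7 (ENSMUSG00000024747, chromosome 19, 20692953 to 20727562, minus strand) encodes an aldehyde dehydrogenase and is a close copy of its neighbour Aldh1a1. Untreated control-diet libraries had 5457, 5678, 7549 and 7445 normalized counts, and untreated high-fat libraries 5244, 3915, 4485 and 3644. The groups did not overlap, as was so for 5.19% of all genes with the high-fat diet lower and 4.54% with it higher. Rbp4 was the only other of the 9 without overlap. Aldh1a7 fell by 0.59 on the log2 scale (SE 0.15, adjusted p = 0.038, limma), from 6532 ± 1118 to 4322 ± 708 (SD, n = 4).

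That call was not stable: Aldh1a7 was lower in all 23 alternatives, by -0.69 to -0.48, but lost the threshold in 11 of them, at adjusted p up to 0.214. Those included leaving out 1 of untreated control-diet replicates 2, 3 and 4 (adjusted p = 0.0532, 0.114 and 0.121), untreated high-fat replicates 2, 3 and 4 (0.0938, 0.0761 and 0.111) or high-fat antibody replicate 2 (0.0507). With the antibody Aldh1a7 measured 4681 to 5965 on control diet and 3402 to 5486 on high-fat diet, a difference of -0.28 ± 0.15 (adjusted p = 0.346, limma). Its antibody differences were -0.28 on control diet and 0.03 on high-fat diet, and the interaction was 0.31 ± 0.22 (SE).

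Aldh1a1, the main enzyme that turns retinaldehyde into retinoic acid in fat (ENSMUSG00000053279, chromosome 19, 20492715 to 20643465), leaned the opposite way to its neighbour. Untreated control-diet libraries had 4200, 2449, 1953 and 1925 normalized counts, and untreated high-fat libraries 2990, 4876, 4374 and 4871. Replicate 1 stood on the far side of the rest in both groups, so the groups overlapped. The difference of 0.75 ± 0.26 (SE, adjusted p = 0.0755, limma) did not pass. It passed without untreated control-diet replicate 1 (1.002, adjusted p = 0.00644) and without untreated high-fat replicate 1 (0.91, adjusted p = 0.038). With the antibody the values were 2027 to 3563 on control diet and 2589 to 4534 on high-fat diet, a difference of 0.26 ± 0.26 (adjusted p = 0.621). The antibody differences were 0.10 on control diet and -0.39 on high-fat diet, and the interaction was -0.49 ± 0.37 (SE).

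The ratio of Aldh1a1 to Aldh1a7 was 0.770, 0.431, 0.259 and 0.259 in untreated control-diet libraries and 0.570, 1.25, 0.975 and 1.34 in untreated high-fat libraries. With the antibody it was 0.391 to 0.650 on control diet and 0.566 to 0.826 on high-fat diet. Some stretches of Aldh1a7 transcripts occur exactly in those of its neighbour Aldh1a1, fewer the longer the stretch. Of 2017 stretches of 50 bases 151 (7.49%) do, of 1992 stretches of 75 bases 50 (2.51%), and of 1967 stretches of 100 bases 1.

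Among the receptors, Rarb (ENSMUSG00000017491, chromosome 14, 16430839 to 16819156, minus strand), which carries the direct repeat printed above, had 99.62, 116.3, 205.1 and 132.6 normalized counts in untreated control-diet libraries and 106.6, 66.26, 97.98 and 85.70 in untreated high-fat libraries. The groups overlapped, and the difference was -0.60 ± 0.24 (SE, adjusted p = 0.114, limma). It passed without untreated control-diet replicate 1 (-0.74, adjusted p = 0.0395), and without the libraries highest in muscle and in beige markers it was -0.26. With the antibody the values were 86.89 to 124.7 on control diet and 51.91 to 103.7 on high-fat diet, a difference of -0.49 ± 0.24 (adjusted p = 0.297). The antibody differences were -0.32 and -0.21. Rarb shares 1793 bases of exon with Top2b on the opposite strand, and Top2b had 2194 to 2863 normalized counts. Whether reads were counted by strand is not given in the sources used here, so the Rarb values are uncertain to that extent.

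Rxrg, a partner receptor of the RARs (ENSMUSG00000015843, chromosome 1, 167598384 to 167639623), was the other gene of the 9 whose antibody and untreated libraries did not overlap on the control diet. Untreated libraries had 685.0, 590.3, 766.4 and 565.9 normalized counts, and antibody libraries 476.7, 401.7, 477.2 and 527.1. The antibody mean was 0.722 of the untreated mean, a difference of -0.47 ± 0.13 (SE). On the high-fat diet the values were 574.8, 601.4, 409.4 and 476.0 untreated and 459.2, 396.5, 447.0 and 451.1 with the antibody, which overlapped (-0.22 ± 0.13). The diet differences were -0.34 without the antibody (adjusted p = 0.0913, limma) and -0.10 with it (adjusted p = 0.726). Rxrg is also expressed in skeletal muscle, and its r with the muscle marker score over the 16 libraries was 0.12 (Spearman's rho 0.22, permutation p = 0.669 and 0.4). The part of muscle RNA in the Rxrg differences was not tested.

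**Figure D2:**
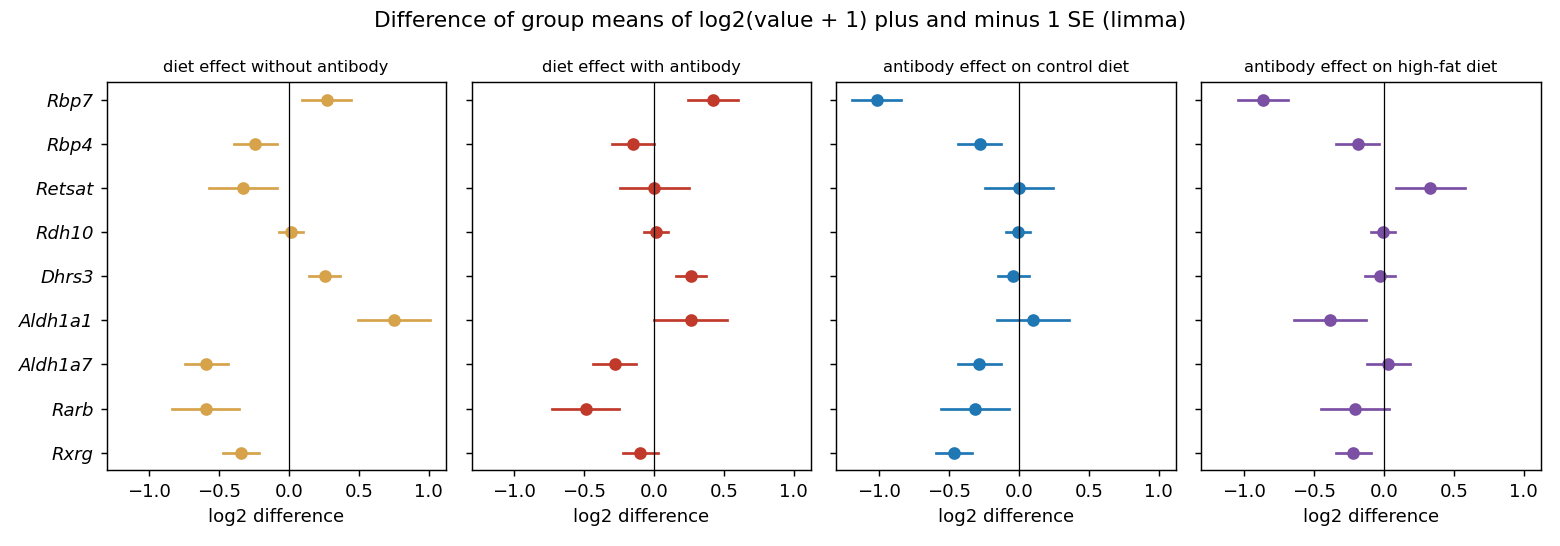
Difference of group means of log2(value + 1) (x axis) for each of the 9 genes (rows) in 4 comparisons, with bars of 1 SE from limma to each side. Rbp7 lies at -1.02 and -0.87 in the antibody panels, which chose it, and Aldh1a7 at -0.59 in the panel of diet without antibody.

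Counted over the set, 1 of 9 genes fell with the high-fat diet without antibody, 0 rose and 8 did not pass, beside 5.17% lower and 2.98% higher of all genes (4 differences above 0, 5 below, median -0.24 against 0.02 for all genes tested). With the antibody 0 of 9 passed (2 at an unadjusted p under 0.05; 5 above 0, 4 below, median 0.00), where only 0.00705% of all genes, 1 of 14189, passed. At an unadjusted p under 0.05 that comparison had 2574 genes. All 9 genes overlapped between the diets with the antibody, and 6.38% and 9.08% of all genes did not overlap, higher and lower. For the antibody, 8 of 9 differences were below 0 on control diet and 7 of 9 on high-fat diet, with medians of -0.28 and -0.19. Of all genes 48% and 50.1% were above 0, with medians of -0.01 and 0.00. The interaction of diet and antibody was above 0 for 8 of 9 (median 0.11), beside 52.7% of all genes (median 0.01). Nothing is read from these counts, because the antibody differences chose the set. Over all genes the interaction had 0 calls (limma, 877 at an unadjusted p under 0.05).

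Several of the 9 genes varied, also within groups, with the level of brown and beige adipocyte markers, genes of fat that burns lipid for heat. A score was taken as the mean log2(value + 1) of 8 brown and beige adipocyte markers, among them Ucp1, the uncoupling protein, and Cidea, a lipid droplet protein. Over the 16 libraries Aldh1a1 was related inversely to this score (r = -0.967, permutation p = 1e-05, the smallest that 100000 permutations can give; adjusted p = 0.00081 over 81 relations of 9 genes with 9 marker lists). Spearman's rho was -0.947 (permutation p = 1e-05, adjusted p = 0.00081). The permutations shuffled libraries across the groups, so these and the later permutation p-values also take in differences between groups. The r within groups leaves those differences out and is given without a test. Without the 2 libraries farthest from the median score r was -0.96, within groups it was -0.96, and over 19 alternatives it lay between -0.98 and -0.96. The library with the highest score, untreated control-diet replicate 3, had 1953 normalized counts of Aldh1a1, and the library with the lowest, untreated high-fat replicate 2, had 4876.

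Retsat and Rarb ran the other way. Retsat had r = 0.837 with the score (permutation p = 5e-05, adjusted p = 0.000972; rho 0.794, permutation p = 0.00044, adjusted p = 0.0109), 0.775 without the 2 farthest libraries and 0.886 within groups. Rarb had r = 0.806 (permutation p = 6e-05, adjusted p = 0.000972; rho 0.768, permutation p = 0.00077, adjusted p = 0.0119), 0.701 without the 2 farthest libraries and 0.849 within groups. For Rarb the adjusted p was 0.0515 without the libraries highest in muscle and in beige markers. Dhrs3 had r = -0.711 (permutation p = 0.00206, adjusted p = 0.0152; rho -0.703, permutation p = 0.00325, adjusted p = 0.0237), -0.776 without the 2 farthest libraries and -0.526 within groups. Its adjusted p was 0.0588 without untreated control-diet replicate 3, 0.0509 without untreated high-fat replicate 4 and 0.0537 without the libraries highest in muscle and in beige markers. The score of 12 adipocyte markers, which shares Cidea with the beige list, had r = -0.838 with Aldh1a1, 0.854 with Retsat and 0.742 with Rarb. The adjusted p were 0.000972, 0.000972 and 0.0111 (permutation), and within groups r was -0.771, 0.852 and 0.803. Over the libraries Cidea had a coefficient of variation of 101.8%, against 30.97% for Pck1, the next highest of the 12. No adipocyte score without Cidea was computed, so whether these relations reach beyond that shared gene was not tested. Dhrs3 had r = -0.368 with the adipocyte score (adjusted p = 0.419, permutation) and 0.667 with the endothelial score (adjusted p = 0.0314, permutation).

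For Rbp7 the r over the 16 libraries includes the antibody difference that chose it, so it is described without a test. With the beige score it was -0.168 over the libraries and 0.409 within groups, with the adipocyte score -0.048 and 0.465, and with the endothelial score 0.269 and 0.286. Aldh1a7 did not follow the beige score as its neighbour did (r = 0.553, adjusted p = 0.123, permutation), although the adjusted p was 0.0244 without high-fat antibody replicate 1 and 0.0403 without replicate 3. It was related inversely to the scores of 12 adipose progenitor markers (r = -0.744, adjusted p = 0.0111, permutation; within groups -0.654) and 10 macrophage markers (r = -0.722, adjusted p = 0.0121, permutation; within groups -0.663). Aldh1a1 was related directly to both, at r = 0.728 (adjusted p = 0.0116, permutation) and 0.752 (adjusted p = 0.0111, permutation).

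**Figure D3:**
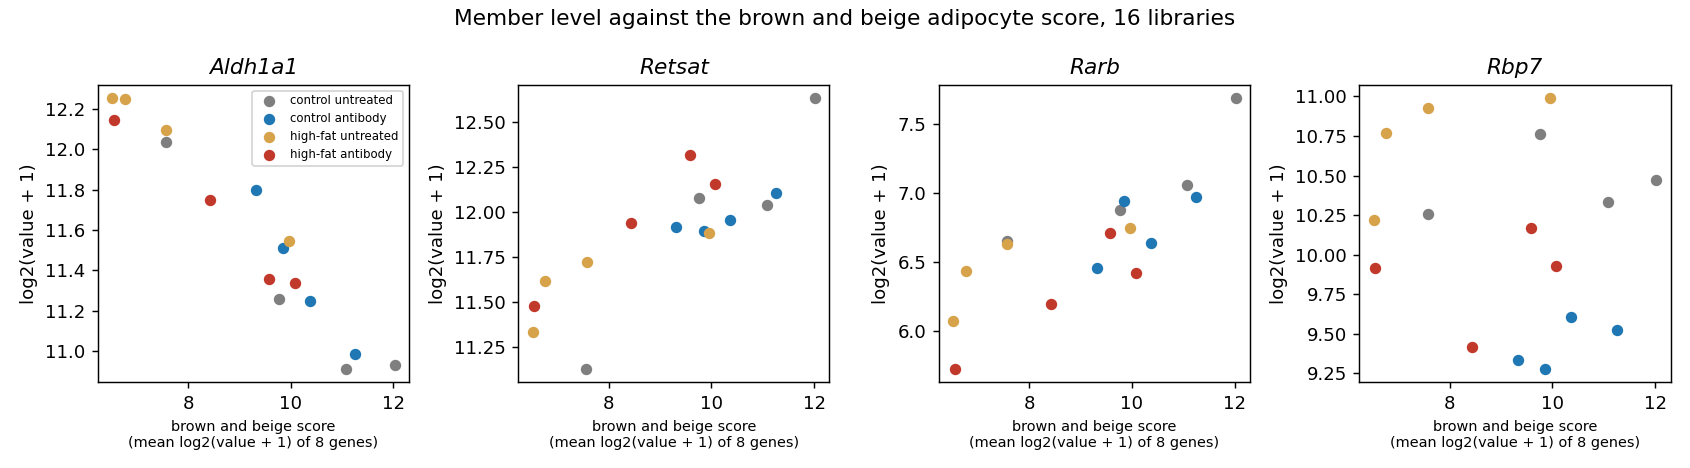
Log2(value + 1) of Aldh1a1, Retsat, Rarb and Rbp7 (y axes) against the brown and beige score, the mean log2(value + 1) of 8 marker genes (x axis), each point 1 of 16 libraries coloured by group. Aldh1a1 descends along a line (r = -0.967), Retsat and Rarb ascend, and the 8 antibody points of Rbp7 lie below its 8 untreated points.

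Without the antibody 7 of the 8 beige markers were lower on the high-fat diet, with a median of -1.88, although only Kcnk3, a potassium channel of brown fat, passed the threshold (-1.20 ± 0.34, adjusted p = 0.046, limma). Ucp1 averaged 16100 ± 20030 on control and 1564 ± 2993 on high-fat diet (SD, n = 4; adjusted p = 0.101). The sum of the score genes ran from 5001 to 86970 untreated and from 13040 to 55490 with antibody on the control diet, against 2979 to 17340 and 2685 to 17750 on the high-fat diet. Their part in the diet differences of Aldh1a1, Retsat and Rarb was not tested.

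The genes also varied with one another inside the groups. On deviations from the group means over the 16 libraries, Retsat and Rarb had r = 0.863, Retsat and Aldh1a1 -0.846, Aldh1a1 and Rarb -0.781, and Aldh1a1 and Dhrs3 0.636. Rbp4 and Aldh1a7 had 0.544. Rbp7 was tied less closely to any of them, its highest r being 0.453, with Retsat. Rdh10 and Rxrg were tied less closely still, at most at 0.215 for Rdh10 (with Rxrg) and -0.237 for Rxrg (with Rbp7). The neighbours Aldh1a1 and Aldh1a7 had -0.279. These are descriptions over libraries that share their RNA composition, with no test.

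**Figure D4:**
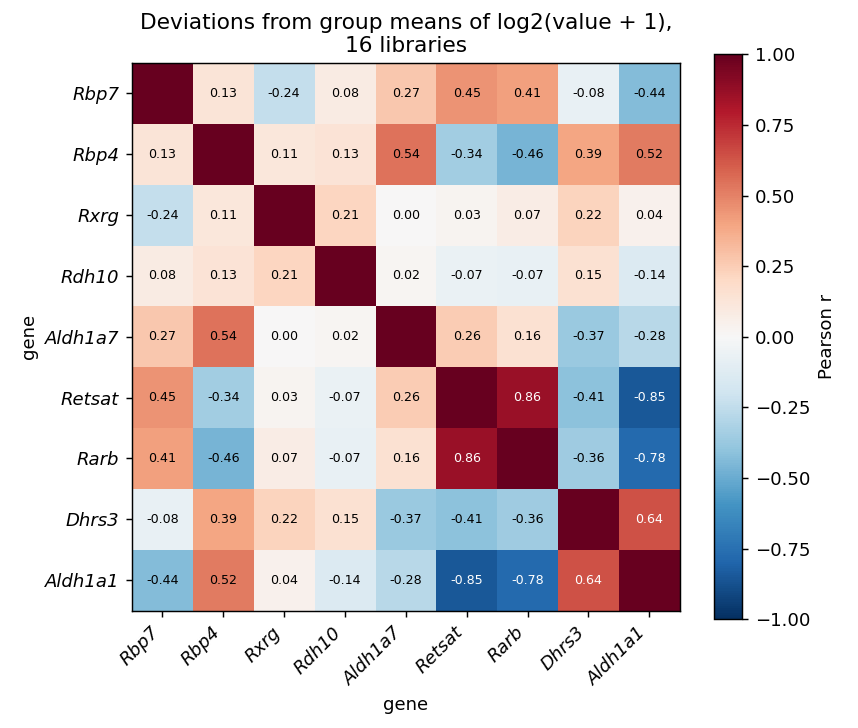
Pearson r between the 9 genes on deviations of log2(value + 1) from the group means over 16 libraries; colour and printed value give r. Retsat and Rarb (0.86) stand together against Aldh1a1 (-0.85 and -0.78), with Rbp7 and Rbp4 tied less closely to them and Rxrg and Rdh10 near 0 with all 3.

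The rest of the retinoid pathway was read from a list of other genes, of which 60 were in the table and 55 were tested. On the high-fat diet without antibody 3 rose, 9 fell and 43 did not pass, beside 2.98% higher and 5.17% lower of all genes, with a median of 0.00 against 0.02. These 12 calls ran from 0 to 26 when 1 library was left out. Among enzymes that oxidise or reduce retinoids 6 of 20 fell, 0 rose and the median was -0.21, and the difference between roles was not tested. Dhrs7, a short-chain dehydrogenase, went from 3916 ± 1199 to 1689 ± 197 normalized counts (SD, n = 4; -1.17 ± 0.18, adjusted p = 0.0136, limma). Rdh14, a retinol dehydrogenase, went from 662.1 ± 123 to 435.7 ± 52.8 (-0.59 ± 0.13, adjusted p = 0.0266). For both genes the diets did not overlap. Rdh13, Rdh11, Adh1 and Adh5 made up the 6, with changes of -0.82 to -0.28.

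Of 11 genes of retinoid binding proteins and receptors, 2 rose and 1 fell, beside 2.98% higher and 5.17% lower of all genes. The receptors Rara and Rarg rose by 0.45 and 0.46 (SE 0.12 each, adjusted p = 0.038 and 0.0362, limma). Rara went from 449.8 ± 24.9 to 616.5 ± 52.3 and Rarg from 1331 ± 138 to 1845 ± 344. Fabp5, a fatty acid binding protein that also binds retinoic acid, fell from 6323 ± 2089 to 3138 ± 722 (-0.97 ± 0.24, adjusted p = 0.0336). The partner receptors did not pass, at 0.19 for Rxra (adjusted p = 0.113, but 0.28 and 0.0411 with quantile scaling) and -0.30 for Rxrb (adjusted p = 0.0773), though Rxrb passed without replicate 1 of either untreated group (adjusted p = 0.0153 without the control-diet and 0.0447 without the high-fat library). In ligand supply 1 of 11 fell, Dgat1 (-0.55), which esterifies retinol and diacylglycerol. Among 9 genes tied to retinoic acid signalling Hoxa4 fell (-0.83 ± 0.20, adjusted p = 0.0338) and Rai14 rose (0.36). The counts for ligand supply and for these genes stand beside the same shares of all genes.

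Neither paralog of Aldh1a1 passed for diet without antibody, at 0.52 for Aldh1a2 (adjusted p = 0.123, limma) and 0.08 for Aldh1a3 (adjusted p = 0.845). Aldh1a2 passed without untreated control-diet replicate 1 (0.70, adjusted p = 0.021). None of 4 tested genes of retinoic acid breakdown passed. The one most tied to retinoic acid, the hydroxylase Cyp26b1, averaged 113.5 ± 38.8 on control and 278.2 ± 140 on high-fat diet (1.20, adjusted p = 0.0971), and with the antibody 63.65 ± 23.5 and 120.4 ± 82.5. Its antibody differences of -0.84 and -1.27 did not pass (adjusted p = 0.508 and 0.226), and its r with Rbp7 was 0.733 over the 16 libraries and 0.411 within groups. Stra6, Lrat, Crabp1 and Crabp2 were not analysed here.

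For the antibody, 0 of 55 passed on control diet and 1 on high-fat diet (10 each at an unadjusted p under 0.05, limma), beside 0.0987% and 0.0775% of all genes. That gene was Zbtb16, a zinc finger factor known as a fusion partner of RARA, which fell from 4360 ± 1572 to 892.8 ± 194 (-2.24 ± 0.27, adjusted p = 0.00623, limma) and on the control diet had 2361 ± 927 and 915.8 ± 112 (-1.30, adjusted p = 0.0771). Its r with Rbp7 was 0.807 over the 16 libraries but 0.084 within groups. The list was drawn up with earlier results of these data known, so the p-values of Zbtb16 are not an independent test. With the antibody 0 of 55 passed for diet (11 at an unadjusted p under 0.05), beside 0.00705% of all genes.

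**Figure D5:**
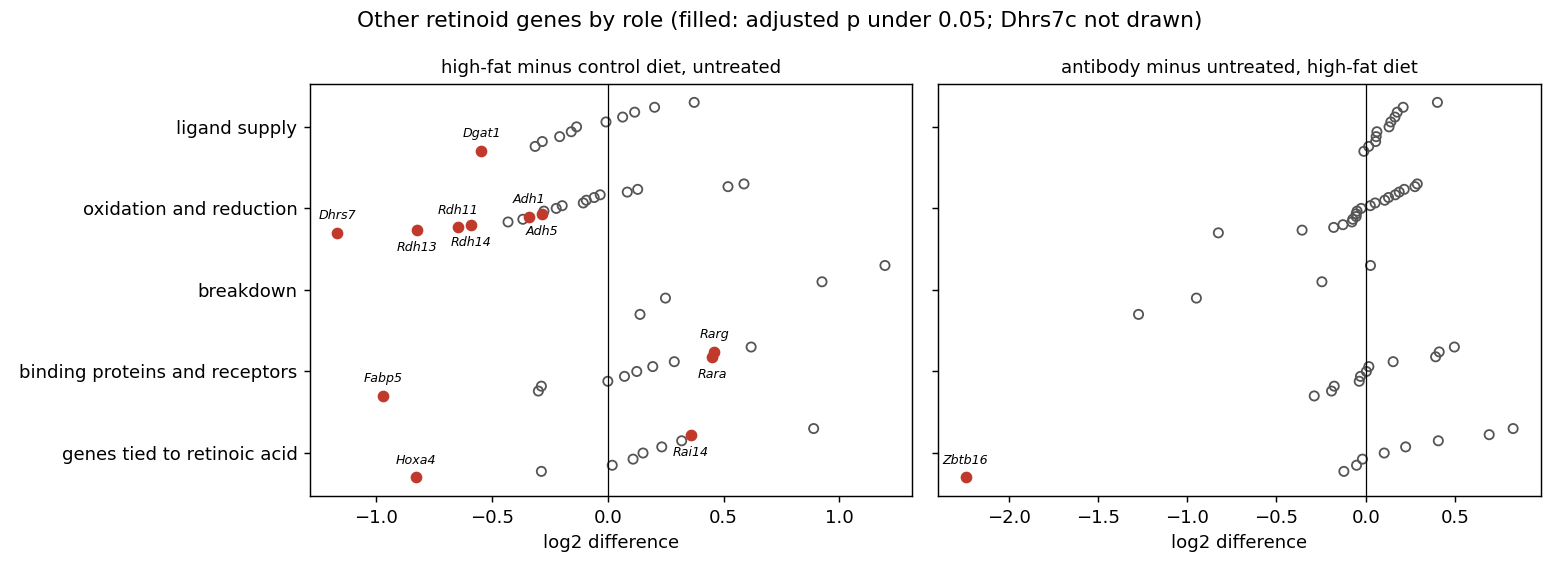
Log2 difference (x axis) of the other retinoid genes by role (y axis; height within a role only orders the genes), for diet without antibody (left) and for the antibody on the high-fat diet (right); filled points passed an adjusted p under 0.05. On the left 6 oxidation and reduction genes lie below 0 as filled points and Rara and Rarg above 0, and on the right Zbtb16 alone is filled. Dhrs7c, an oxidation and reduction gene at 1.97 on the left and -3.91 on the right (adjusted p = 0.32 and 0.195, limma), is not drawn.

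These pathway calls also rested on single libraries. The number of other retinoid genes past the threshold for diet without antibody, 12, ran from 0 to 26 when 1 library was left out: it was 26 without untreated control-diet replicate 1, and 0 without untreated control-diet replicate 4 or untreated high-fat replicate 4. It was 1 without replicate 3 and 2 without replicate 2 of either of these groups. Over 23 alternatives Dhrs7 was called in 18, Rdh14 and Rarg in 14 each, Fabp5 and Hoxa4 in 13 each and Rara in 11. Dgat1 and Adh5 were called in 9 each, Rdh11 in 7, Adh1 in 6, Rdh13 in 5 and Rai14 in 4, while Zbtb16 on the high-fat diet was called in 21. Dhrs7 lost its call without replicate 4 of untreated control-diet libraries (adjusted p = 0.0534) or of untreated high-fat libraries (0.0548).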

How the data were processed

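Poly-A RNA of 16 libraries was sequenced. The builds mm10 and GRCm38 and the tools STAR 2.7.0e, Subread 1.6.2, featureCounts, limma 3.42.2 and fastp 0.20.1 are named in the submitters' processing notes. Values in the deposited table are a linear signal, called normalized counts by the authors. How they were normalized, and whether by strand, the sources used here do not give. Values were not whole and whole reads could not be recovered, so no count model was run.

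Genes above 24.49 normalized counts, the median column total divided by 1e6, in at least 4 libraries were tested (14189 tested, 1902 left out). One limma 3.58.1 model in R 4.3.3, with variance trend, was fitted to log2(value + 1) of all 16 libraries with 4 group means (residual degrees of freedom 12, prior 3.07), two-sided, with Benjamini-Hochberg adjustment within each comparison and a threshold of 0.05, after a test on simulated data. Fold changes on this scale understate the change of low genes. Correlations used 100000 permutations of all 16 libraries without regard to group, two-sided, with Benjamini-Hochberg adjustment over 81 relations (SciPy 1.17.1). Coordinates and exon lengths come from GENCODE vM21 (GRCm38), promoters from RefSeq GRCm38.p6.

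The 9 genes and all lists were chosen with earlier results of these data known. Of other retinoid genes, those past the threshold (up to 6 of smallest p in each comparison) and 12 set receptors, binding proteins and enzymes were to be named, of which 1 is not reported here; Dgat1, Rdh11, Rdh13, Adh1, Adh5 and Rai14 were added after their values were seen. The 6 genes most like Rbp7 leave out predicted genes, and from each marker list up to 4 genes of highest level and those past the threshold were named; Elovl3 was added for its value of 0.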

Additional observations from a re-analysis of the deposited data

Results flagged for a closer look

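Rdh10 had 1 library apart from the other 3 in both high-fat groups. In untreated high-fat replicate 1 it measured 432.9 normalized counts against 335.0 to 347.1 in the others, and the gap was 0.877 of the group's range, above Dixon's 95% critical value for 4 samples. In high-fat antibody replicate 1 it measured 394.7 against 347.7 to 355.4, a gap of 0.837 of the range. In all, 36 groups of 4 libraries were looked at in this way, and chance alone would mark about 1 in 20.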

How the results depend on the processing

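The numbers of genes past the threshold were unstable. They were 1157 for diet without the antibody, 1 for diet with it, 14 and 11 for the antibody on control and high-fat diet, and 0 for the interaction, and 12 among the other retinoid genes. Leaving out 1 library at a time gave 0 to 4119, 0 to 239, 0 to 86, 1 to 271, 0 to 1 and, for the other retinoid genes, 0 to 26. Fitting only the groups compared gave 0, 641, 0 and 4 in the same order, and 0 retinoid genes. Without untreated control-diet replicate 3 (highest in beige markers) and untreated high-fat replicate 2 (highest in muscle markers) the numbers were 0, 298, 21, 10 and 0, and 0 retinoid genes. With the muscle marker score as a covariate they were 65, 0, 4, 0 and 0, and 1 retinoid gene. Without the filter on low values diet with the antibody gave 2 genes. With the replicate number as a block (replicate block) they were 0, 0, 4, 0 and 0, and 0 retinoid genes. Same-numbered untreated and antibody libraries deviated together at r of -0.309 to 0.469, and only 2 of 8 untreated libraries correlated best with their own number. What libraries of the same number share is not given, and these values cannot decide it. A pseudocount of 10 and quantile scaling kept every count within 1.5 times. The cause of these shifts was not tested, beyond the smaller number of libraries in the fits that left some out.

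Of the tested values of single genes under these alternatives, 676 kept their side of the threshold, 166 lost it and 9 gained it. Only genes past the threshold in the main fit could lose it. The 166 thus all came from Aldh1a7, the 12 other retinoid genes called for diet without antibody, and Zbtb16. Many of the 676 were values that did not pass in the main fit either, so they do not show that the calls were stable. Of the antibody differences and interactions of the 9 genes, which have no test, 605 were counted as kept and 6 as moved. The measure was the spread between libraries, or the SE where a value smaller than its SE changed sign. Such small values could thus change sign and count as kept. The Retsat antibody difference on control diet kept its sign in 14 of 23 alternatives. The interaction kept its sign in 13 of 22 for Rdh10 and 19 of 22 for Rbp7. Of the values larger than their SE, only the Aldh1a1 interaction of diet and antibody reversed, to 0.033 with the muscle covariate. The cause was not tested. Precision is limited by 4 libraries a group, and the depth in reads is unknown.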
